A study of Mus musculus with 24 samples.

Results

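The genes of blood coagulation and fibrinolysis described here are Fga, Fgb and Fgg, F2, F5, F7, F10 and F11, Kng1 and Plg. They were chosen by name, 10 genes of the 22350 protein-coding genes annotated on the autosomes and X chromosome. Peaks of H3K27ac, acetylation of lysine 27 on histone H3 and a mark of active promoters and enhancers, were assigned to a gene when they overlapped its body or the 10 kb on either side. The study profiled this mark by ChIP-seq (chromatin immunoprecipitation and sequencing) in liver, with the aim of relating sex and strain differences in liver chromatin to gene expression. The mice were of the inbred strains C57BL/6J (here B6) and CAST/EiJ (here CAST), of either sex and 8 weeks old, with 5 livers and 1 input library per strain and sex. No treatment or engineered allele is given for any group. The livers of each group were pooled into 1 peak list, so that 4 lists are compared, and no value has an SD or a test between conditions. Groups were taken from the sample titles. In a separate label for strain, all females are CAST/EiJ and all males C57BL/6J, against the titles of B6 females and CAST males, whereas the list names and the study's methods go with the titles. Where 4 values follow each other below without names, they belong to the lists of males and then females of B6, and then of males and females of CAST.

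In the coagulation cascade, factor VII with tissue factor and factor XI of the contact pathway lead to activation of factor X, which together with its cofactor, factor V, cleaves prothrombin to thrombin. Thrombin cuts fibrinogen into fibrin, and plasmin, made from plasminogen, dissolves the clot. Hepatocytes secrete most of these proteins into plasma, and fibrinogen is an acute-phase protein whose genes answer to interleukin 6.

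The B6 lists held 79862 peaks for males and 82181 for females, and the CAST lists 90228 and 84645. The number of reads behind them is not given in the lists. Merging overlapping peaks of the 4 lists gave 119348 regions, of which 96 touched the windows of the 10 genes. The liver label was checked against marker genes: 5 of 6 hepatocyte genes (Alb, Apoa1, Ttr, Hnf4a and Tat) had a peak within 2.5 kb of a start in all lists, and Serpina1a had no peak in its window in any. Start peaks in all lists were also found for 3 of 4 endothelial and 4 of 4 platelet markers, for 0 of 5 leukocyte markers and 1 of 4 markers of stellate cells and cholangiocytes, and for 0 of 4 genes of other tissues. Over all protein-coding genes this share was 56.9%. A whole liver holds all these cell types, and the cell type behind a peak was not tested. The lists rest on uniquely mapped reads, and repeated sequence was not counted in the Serpina1a window. Its missing peaks therefore do not show a missing mark.

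All 10 genes carried H3K27ac near their start in every list. A peak lay within 2.5 kb of a protein-coding start in all 4 lists for 10 of 10 members, against 56.9% of 22342 protein-coding genes. The windows overlap, since Fgg, Fga and Fgb lie in a row on chromosome 3 and F7 and F10 adjoin on chromosome 8, so the 10 genes fall into 7 separate windows of 378 kb in all. Within these, peaks covered 59.9 kb for males and 54.9 kb for females of B6, and 59.7 and 52.7 kb for those of CAST. The corresponding numbers of peaks were 71, 78, 75 and 73. The male lists thus covered more than the female lists in both strains, while the number of peaks in B6 went the other way. The median member had 18.6% and 16.5% of its window covered in B6 males and females and 18.7% and 16.9% in those of CAST, whereas the median over all protein-coding genes lay between 4.66% and 5.10%.

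**Figure D1:**
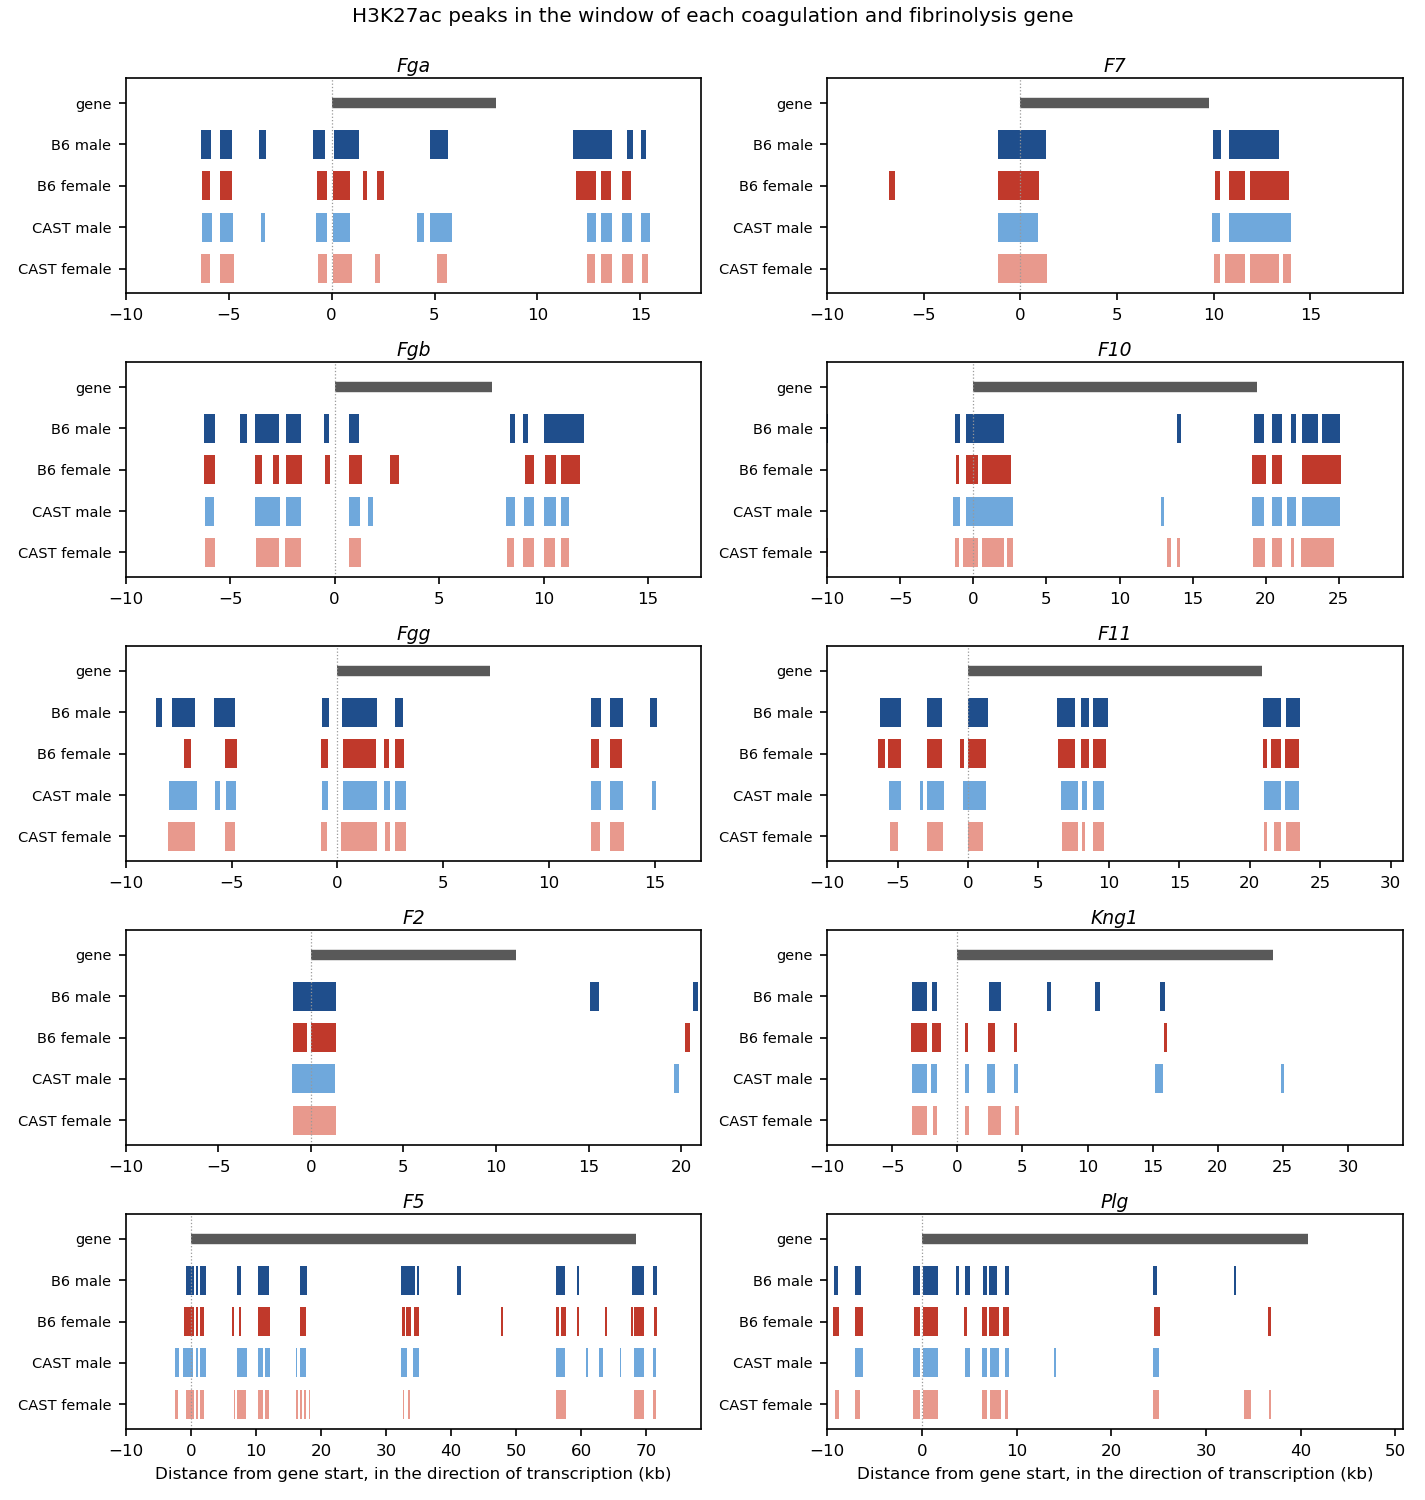
Peaks of each list in the window of each gene, by distance from the gene start in the direction of transcription (kb), with the gene body as a grey bar and 1 coloured row per list. Peaks recur at like distances in the 4 lists, and regions found in a single list are at most 705 bp wide.

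Promoter peaks, here those within 2.5 kb of any annotated transcript start (also that of a neighbouring gene), made up 50.1% and 51.0% of the covered length in B6 males and females and 54.0% and 55.4% in those of CAST. Distal peaks covered 29.9, 26.9, 27.5 and 23.5 kb in the same order, and promoter peaks 30.0, 27.9, 32.2 and 29.2 kb. Distal length was thus lower in females of both strains, and it was lowest in CAST females. The members differed in how the mark was divided. F7 had promoter peaks only, between 5480 and 5841 bp in the 4 lists and no distal peak, and its window also takes in the F10 start. F5, the longest gene at 68.4 kb, had the most distal length, from 7594 bp in CAST females to 9645 bp in B6 males. F11 had 4562 to 6697 bp of distal peaks, lowest in CAST females and highest in B6 males.

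**Figure D2:**
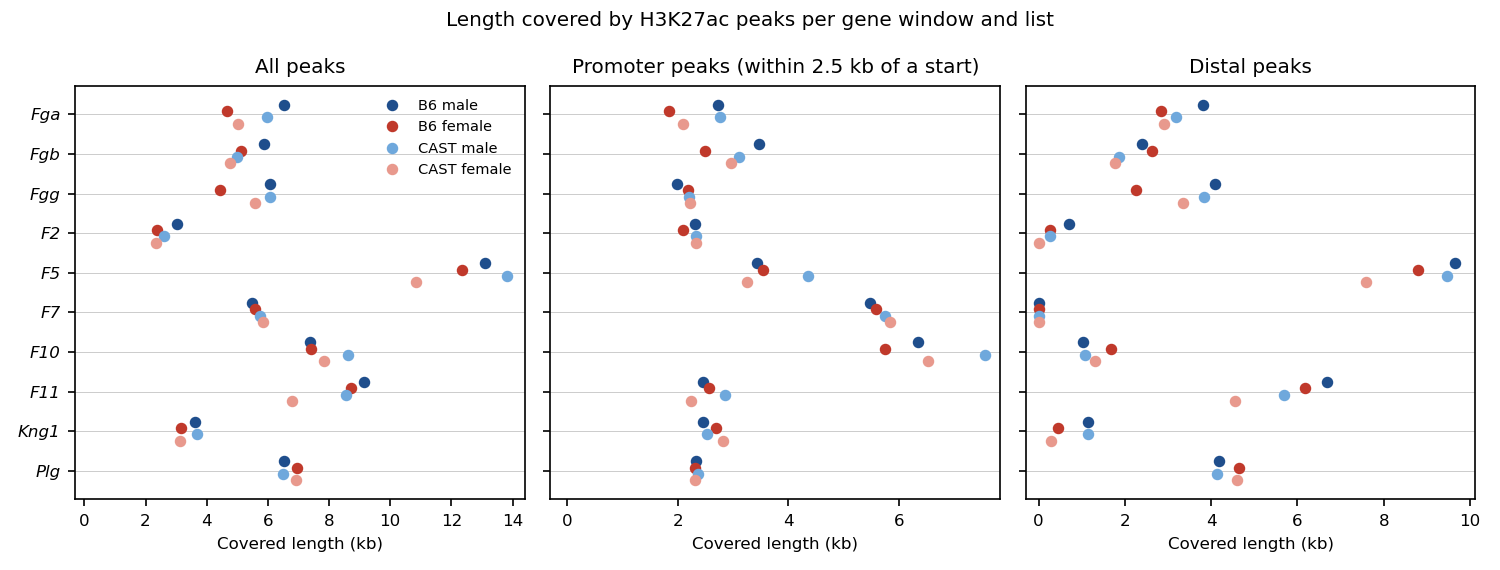
Length covered by peaks (kb) in each gene window, for all peaks, promoter peaks and distal peaks, with 1 point per list. F5 has the widest coverage, and F7 has no distal peaks.

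Fibrinogen is built from 3 chains, and the genes of the Aα, Bβ and γ chains, Fga, Fgb and Fgg, share a cluster at chr3:82801781-82863725 (mm9, with the windows added). Fga (ENSMUSG00000028001.9) lies at chr3:82830075-82838036 on the plus strand, Fgb (ENSMUSG00000033831.4) at chr3:82846169-82853725 on the minus strand, and Fgg (ENSMUSG00000033860.7) at chr3:82811781-82818975 on the plus strand. In none of the 4 lists did a peak cover the start base of any of the 3 genes. Instead, called regions flanked each start. At Fga a region ended 241 bp before the start and the next began 44 bp after it. For Fgg the uncovered stretch ran from 420 bp before the start to 179 bp after it. At Fgb it ran from 243 bp before to 669 bp after the start in the B6 lists, and in the CAST lists the nearest upstream peak ended at -1604 bp in males and -1601 bp in females. The promoter sequences of these genes are shown because they fall in this gap, from 250 bases before to 49 after the start given by RefSeq (GRCm38.p6), with matches to 4 short motifs of liver or acute-phase factors in capitals.
Fga: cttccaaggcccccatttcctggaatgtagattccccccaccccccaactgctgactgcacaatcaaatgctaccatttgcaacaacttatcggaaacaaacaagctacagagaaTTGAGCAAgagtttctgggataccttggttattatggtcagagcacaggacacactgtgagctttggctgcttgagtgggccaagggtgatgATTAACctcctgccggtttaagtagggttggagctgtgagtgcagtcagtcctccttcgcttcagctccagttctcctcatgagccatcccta
Fgb: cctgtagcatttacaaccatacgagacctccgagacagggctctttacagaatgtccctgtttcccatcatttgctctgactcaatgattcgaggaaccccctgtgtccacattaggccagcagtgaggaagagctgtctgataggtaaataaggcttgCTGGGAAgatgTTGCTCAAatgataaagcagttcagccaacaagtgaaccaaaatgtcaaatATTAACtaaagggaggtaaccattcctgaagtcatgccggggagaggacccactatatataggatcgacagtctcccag
Fgg: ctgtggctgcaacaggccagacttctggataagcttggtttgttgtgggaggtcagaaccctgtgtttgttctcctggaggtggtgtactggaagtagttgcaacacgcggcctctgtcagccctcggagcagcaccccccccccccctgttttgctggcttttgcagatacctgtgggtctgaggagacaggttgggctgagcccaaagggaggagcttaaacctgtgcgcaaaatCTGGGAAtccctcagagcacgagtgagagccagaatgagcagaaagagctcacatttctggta
Each of these sequences matched NCBIM37 (mm9) exactly once, at chr3:82829825-82830124 for Fga, at chr3:82853736-82854035 for Fgb and at chr3:82811396-82811695 for Fgg. Of the 300 bases, peaks covered 0 to 16 at Fga and 0 at Fgg, whereas at Fgb they covered 49 for B6 males, 68 for B6 females and 0 for both CAST lists. RefSeq puts the start 60 bp upstream of the GENCODE start for Fgb and 135 bp upstream for Fgg, and the RefSeq starts also lie in the uncovered stretches.

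The motifs searched on both strands were GTTAAT, part of HNF1 sites, CAAAGT, a core of HNF4 sites, TTGCNNAA for C/EBP factors, and CTGGGAA, an interleukin 6 response element. Fga held GTTAAT at -43 to -38 and TTGCNNAA at -135 to -128, both on the opposite strand, with the first transcribed base counted as 0. In Fgb, GTTAAT was found at -29 to -24 on the opposite strand, TTGCNNAA at -80 to -73 and CTGGGAA at -91 to -85. Fgg held CTGGGAA at -13 to -7. Over the 32851 RefSeq promoters of this length, 7.10% held GTTAAT, 14.4% CAAAGT, 10.8% TTGCNNAA and 11.1% CTGGGAA. Among the 8 members in the promoter table, these motifs were found in 3, 1, 3 and 2 promoters in the same order. Such matches are letters in a window, and no binding was measured.

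The strength of the peaks flanking the fibrinogen starts was read from their fold enrichment over the local background and from their score. The score of a peak was ranked within its list as a percentile, with 100 for the highest. For the highest-ranked start peak, the fold enrichment of Fga was 2.21 and 1.97 in B6 males and females and 2.94 and 2.60 in those of CAST, at score percentiles of 67.9, 55.0, 82.3 and 75.4. Fgb stood at 1.92, 2.12, 2.22 and 2.34 and Fgg at 1.93, 1.96, 2.18 and 2.03 in the same order. Percentiles ranged from 58.1 to 69.9 for Fgb and from 55.9 to 67.9 for Fgg. The Fga folds were higher in both CAST lists than in both B6 lists, and so were those of Fgb and Fgg, by less. For Fgg this held for the fold alone, since its percentile in CAST females, 55.9, was below those of both B6 lists.

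The local background was high at the fibrinogen genes. The peak caller expresses a peak relative to a background of its neighbourhood, which the study's methods take from input DNA. The fold enrichment and p-value of a peak together fix that background, which was solved for each peak after the lists had been examined. The most common solution in a list, its common background, was 18.5 and 18.9 for B6 males and females and 18.2 and 17.1 for those of CAST, in units of read coverage. Over the peaks in the gene body, the median local background was 4.35 to 4.94 times the common background for Fga, 4.26 to 5.37 times for Fgb and 4.32 to 5.56 times for Fgg. The median over all protein-coding genes with peaks lay between 1.73 and 1.78 times. Local background reached at least 2 times the common background in all 4 lists for 8 of 10 members, against 31.7% of 13124 genes with gene-body peaks in every list. Both exceptions, F5 and Kng1, are described with their genes. The solved background differed between peaks of the same gene, from 1.11 to 7.51 times in the F5 body in B6 males. Whether it follows the input reads or the mark itself was not tested.

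When the coverage at the summit (pileup, solved in the same way) was divided by the common background of the list, the fibrinogen start peaks ranked higher. Fga reached 11.3 and 8.98 times the common background in B6 males and females and 14.7 and 11.4 times in those of CAST. The range was 10.2 to 12.1 times for Fgb and 9.04 to 12.4 times for Fgg. Pileup percentiles within the lists were 77.3 to 89.0 for Fga, 81.8 to 84.3 for Fgb and 77.1 to 84.7 for Fgg. By score, 6, 6, 8 and 8 of the 10 members had a start peak in the top 25% of the lists in the order given above, and by pileup it was 9 of 10 in each, all but Kng1. Most genes with a start peak met this mark: 80.1%, 80.5%, 81.0% and 79.4% of them did so by score in the same order, and 73.0%, 73.4%, 73.5% and 72.0% by pileup.

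**Figure D3:**
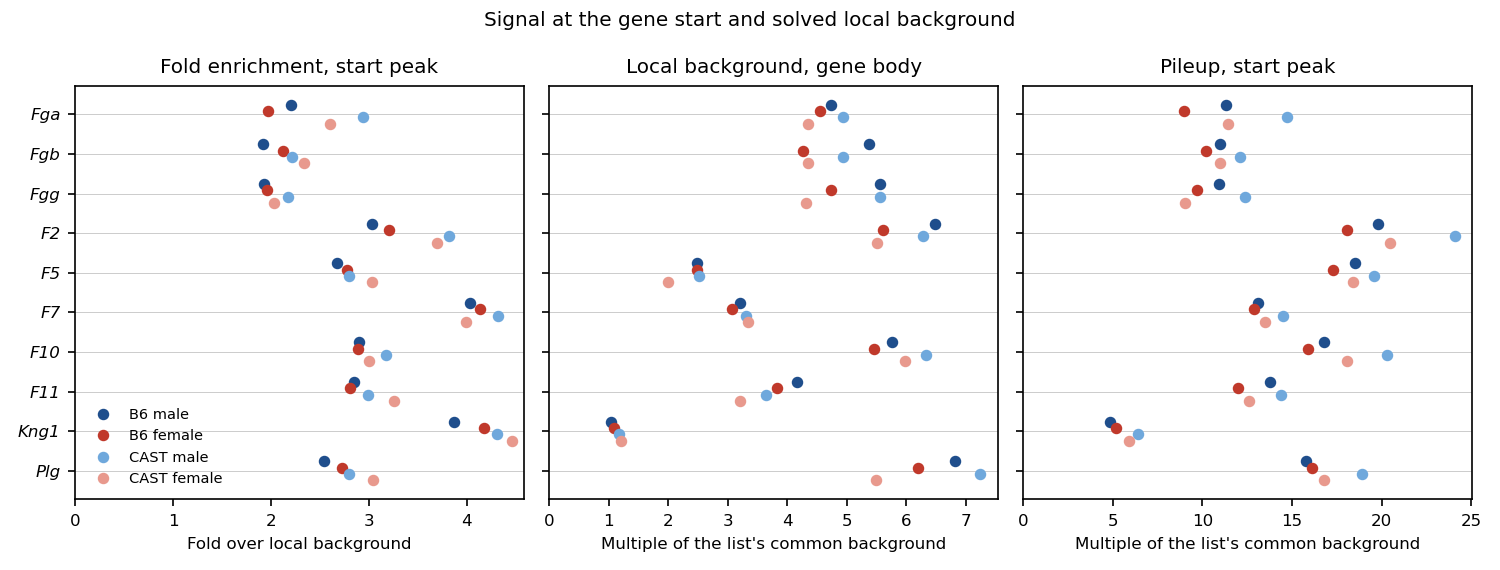
Fold enrichment of the highest-ranked start peak, median local background over the peaks of the gene body, and highest pileup among start peaks, per gene with 1 point per list (x axes in multiples, from 0). Kng1 has high folds on a local background near the common one, while F2, F10 and Plg have lower folds on a background of at least 5.46 times the common one.

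By mean score percentile over the lists, the highest-ranked regions of the fibrinogen cluster lay outside its gene bodies. In CAST males alone, the Fga start peak, at a percentile of 82.3, ranked above the first 2 regions given here. Between the 3' ends of Fga and Fgb, the region chr3:82841801-82843699 was called in all lists, with score percentiles of 79.3, 84.6, 80.1 and 81.7 and folds of 2.91, 3.41, 3.10 and 3.24. It was the highest-ranked region in the Fga window, at a mean percentile of 81.4. In the Fgg window the highest was chr3:82824642-82825333, intergenic and 4742 bp upstream of the Fga start, with percentiles of 72.5, 73.2, 80.2 and 77.4. The highest in the Fgb window, chr3:82859451-82859975 with a mean percentile of 86.1, lies at the start of the neighbouring gene Plrg1, so it does not describe fibrinogen. Upstream of Fgb, chr3:82856343-82857555 reached percentiles of 78.4, 70.7, 82.4 and 75.5, 2618 bp from the start.

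Fewer bases of the fibrinogen windows were covered in females than in males. Fga had 6536 bp covered in B6 males and 4676 bp in B6 females, a log2 ratio of -0.48, and 5967 and 5021 bp in CAST males and females, a log2 ratio of -0.25. For Fgg the values were 6086 and 4446 bp in B6 (-0.45) and 6056 and 5578 bp in CAST (-0.12). Fgb had 5883 and 5114 bp in B6 (-0.20) and 4981 and 4749 bp in CAST (-0.07). Over all genes, the median log2 ratio was -0.05 in B6 and -0.11 in CAST, and the B6 ratios of Fga, Fgg and Fgb lay at the 7.26th, 8.24th and 25.0th percentiles of 15104 genes. In CAST they lay at the 29.4th, 48.6th and 57.5th percentiles of 15253 genes, near the middle for Fgg and Fgb. The Fgg ratio in CAST went from -0.12 to -0.85 when only peaks with a −log10 q-value of at least 5 were kept. Because Fga and Fgg share peaks between them, these are not separate observations. The Fgb and Fgg ratios changed sign or size in B6 when the flanks were left out: over the gene body alone, Fgb stood at 1.11 and Fgg at 0.15, whereas Fga stood at -0.64.

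The fibrinogen cluster held 27 regions. Of the 25 called in B6, 9 were called in 1 sex only (5 in males and 4 in females), and of the 22 called in CAST, 4 (3 in males and 1 in females). Over the whole series, 34.9% of regions called in B6 and 35.5% of those in CAST were found in 1 sex only. The intergenic region chr3:82826541-82826863, 3212 bp upstream of the Fga start, was called in both male lists and in neither female list. It was 323 bp wide in B6 males and 215 bp in CAST males, with folds of 1.85 and 1.75 and percentiles of 48.8 and 35.9. An exonic region of Fga, chr3:82832170-82832629, was called in both female lists only, at percentiles of 0.61 in B6 and 13.5 in CAST, close to the calling threshold. One region near Fgb differed by strain. The interval chr3:82853968-82854224, from -499 to -243 bp relative to the Fgb start, was called in both B6 lists, with folds of 1.83 in males and 1.82 in females and percentiles of 52.4 and 47.0, and in neither CAST list. The sequence of this B6-only region (mm9, minus strand, so that it reads toward Fgb) is shown because it is the strain-specific call closest to a member's start. It held none of the 4 motifs, and its last 68 bases are the first 68 of the Fgb promoter above.
Fgb B6-only region: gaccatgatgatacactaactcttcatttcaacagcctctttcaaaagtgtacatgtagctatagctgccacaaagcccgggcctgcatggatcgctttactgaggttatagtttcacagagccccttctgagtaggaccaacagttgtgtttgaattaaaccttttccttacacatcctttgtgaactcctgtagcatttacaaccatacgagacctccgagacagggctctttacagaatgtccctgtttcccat
The CAST lists were converted to mm9 from a genome of that strain, and the part of this step in the call was not tested.

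Prothrombin, the precursor of thrombin, is encoded by F2 (ENSMUSG00000027249.9, chr2:91465477-91476571, minus strand). It had a single strong region, chr2:91475225-91477570, over its start, which was called in all lists, and no other region shared by all 4. Its start peak had folds of 3.03 and 3.21 in B6 males and females and 3.82 and 3.70 in those of CAST. Score percentiles were 88.4, 88.8, 92.6 and 92.7, and the mean of 90.6 was the highest of any region of the 10 genes. Relative to the common background the pileup was 19.8, 18.1, 24.1 and 20.5 times, at percentiles of 96.3 to 98.6, and the local background was 5.50 to 6.48 times. Both CAST lists were thus above both B6 lists in fold and in pileup. In B6 females the region was split into 2 peaks that left the GENCODE start base uncovered, whereas the other lists covered it. The whole window held 3027, 2363, 2591 and 2336 bp of peaks, or 7.51% to 9.73%. Outside the start, 4 regions were each called in 1 list only, 3 of them in introns of the neighbouring gene Ckap5, and none was above a percentile of 15.1.

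Coagulation factor V, the cofactor of factor X, is encoded by F5 (ENSMUSG00000026579.8, chr1:166081969-166150408, plus strand). Its start region, chr1:166080797-166082463, covered the start base in every list. The folds were 2.68, 2.78, 2.80 and 3.03, and pileups 18.5, 17.3, 19.6 and 18.4 times the common background. The local background over its long body was 1.99 to 2.52 times, so F5 fell just short of 2 times in CAST females. Peaks covered 13087, 12342, 13833 and 10851 bp, and 21 regions were found in its window, 10 of them in all lists. Strong distal regions lay in an intron at chr1:166092245-166094096, with percentiles of 78.2, 84.4, 81.6 and 79.7, and over the 3' end at chr1:166149541-166151609, with 82.2, 83.4, 84.4 and 83.1.

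F5 held 3 of the 4 strain-only regions of the 10 genes. A region called in both CAST lists and in no B6 list, chr1:166079520-166080087, lies 1882 bp upstream of the start and overlaps exons of Selp, the P-selectin gene, and Gm16548. It had folds of 1.83 in CAST males and 2.15 in CAST females and percentiles of 52.8 and 65.6. Another CAST-only region, chr1:166098071-166098418, lies in an F5 intron, with percentiles of 23.5 and 35.6. The intronic region chr1:166141269-166141622 was B6-only, at 13.1 in males and 41.6 in females. A further intronic region, chr1:166088253-166088772, was called in females of both strains only, with folds of 1.43 and 1.46 and percentiles of 12.2 and 7.63.

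Factor VII starts the extrinsic pathway and factor X is the enzyme of the common pathway, and both are vitamin K-dependent proteases encoded side by side. F7 (ENSMUSG00000031443.6) lies at chr8:13026034-13035809 and F10 (ENSMUSG00000031444.9) at chr8:13037308-13056676, both on the plus strand. At both genes, and in every list, peaks covered the start base and all 300 bases of the promoter, in contrast to the fibrinogen genes. The promoters are shown for that contrast (RefSeq, GRCm38.p6, matched exactly in mm9 at chr8:13025784-13026083 and chr8:13037058-13037357). Neither held any of the 4 motifs as spelled above. Other spellings of such sites were not searched, so sites for these factors may still be present.
F7: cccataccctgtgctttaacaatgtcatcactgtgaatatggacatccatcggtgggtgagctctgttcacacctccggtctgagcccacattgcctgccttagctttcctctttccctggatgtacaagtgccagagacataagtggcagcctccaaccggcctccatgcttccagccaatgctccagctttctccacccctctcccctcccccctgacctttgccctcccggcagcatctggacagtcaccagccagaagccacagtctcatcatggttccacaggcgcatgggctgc
F10: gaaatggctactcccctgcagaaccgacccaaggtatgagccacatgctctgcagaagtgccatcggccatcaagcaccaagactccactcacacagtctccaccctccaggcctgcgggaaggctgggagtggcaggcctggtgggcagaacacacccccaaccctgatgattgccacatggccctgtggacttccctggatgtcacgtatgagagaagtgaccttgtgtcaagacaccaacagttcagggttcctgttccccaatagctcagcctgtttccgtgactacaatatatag
The F7 start region, chr8:13024853-13027397, had folds of 4.04, 4.14, 4.32 and 3.99, and percentiles of 88.2, 88.7, 88.9 and 88.8. The 4 lists thus placed this region at nearly the same rank. Its pileup was 13.1, 12.9, 14.5 and 13.5 times the common background. The F10 start region, chr8:13036606-13040040, was the widest of all at 3435 bp. It had lower folds of 2.89 to 3.18 on a local background of 5.46 to 6.33 times, and higher pileups of 16.8, 15.9, 20.3 and 18.1 times. By fold F7 was above F10 in every list, and by pileup F10 was above F7 in every list. Covered lengths were 5480, 5595, 5751 and 5841 bp for F7 and 7382, 7413, 8615 and 7845 bp for F10. The F10 window also takes in the start of Proz, protein Z, where chr8:13059732-13062422 had percentiles of 81.4, 82.0, 82.9 and 83.7. An intronic F10 region, chr8:13051210-13051525, was called in B6 males and CAST females only, at percentiles of 26.7 and 5.29.

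Factor XI, a protease of the contact pathway, is encoded by F11 (ENSMUSG00000031645.3, chr8:46326524-46347385, minus strand). Its start region, chr8:46346000-46347952, had folds of 2.85, 2.81, 2.99 and 3.26 and percentiles of 82.2, 80.0, 81.9 and 83.7. It covered the start base in all lists but that of B6 females. Its pileup was 13.8 times the common background in B6 males, above that in B6 females, and 12.3 times in CAST females, below that in CAST males. The highest start pileup was greater in males than in females of both strains at 8 of 10 members, all but Plg and Kng1, against 55.6% of the 12374 genes with a solved start pileup in every list. Of the 9 regions in the window, 8 were called in all lists, the largest share of any member. These included exonic and intronic regions 6315 to 9940 bp into the gene and the pair beyond its 3' end. An upstream region, chr8:46352125-46353762, ranked lower in CAST, at percentiles of 46.4 in males and 7.82 in females, than in B6, at 64.8 and 74.0. Total coverage was 9152, 8733, 8540 and 6799 bp, lowest in CAST females. The F11 promoter held CAAAGT at -157 to -152 and TTGCNNAA at -17 to -10.

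Kininogen is the cofactor of the contact pathway and the precursor of bradykinin. Kng1 (ENSMUSG00000022875.10, chr16:23057938-23082141, plus strand) stood apart from the other members. Its local background was 1.04 to 1.20 times the common background, against at least 1.99 times for the others. The folds of its highest-ranked start peak, 3.87, 4.18, 4.31 and 4.46, were above those of all other members in both female lists and below those of F7 alone in both male lists. Its pileups, however, were the lowest of the 10 genes in every list, at 4.81, 5.19, 6.39 and 5.91 times, with percentiles of 51.9 to 63.7. No list had a peak on the start base. The highest-ranked region by the mean over the 4 lists, where an uncalled list lowers the mean, was chr16:23055951-23056656, 1282 bp upstream. A region 550 to 897 bp into the gene was called in all lists but that of B6 males, at percentiles of 65.2, 77.0 and 72.7. Over the lists that called them, its mean percentile was 71.6, against 71.2 for the upstream region. Covered lengths were 3615, 3151, 3679 and 3119 bp. Kng1 has a close copy, Kng2, and the lists rest on uniquely mapped reads. Of the 50-base words in the Kng1 window of mm9, 18.4% occurred more than once in the genome, against 0.390% to 8.69% for the other windows. The share was 5.29% within peaks and 20.3% outside them. A single read lying within such a word would not map uniquely in mm9. The study sequenced read pairs and mapped CAST reads to a CAST genome, and the effect of the repeats on the pileup was not tested.

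Plasminogen, the precursor of plasmin, is encoded by Plg (ENSMUSG00000059481.4, chr17:12571475-12612250, plus strand). As at the fibrinogen genes, the start base was uncovered in every list, between a region ending 163 bp before it and another, chr17:12571576-12573218, beginning 101 bp after it. The latter had folds of 2.54, 2.73, 2.80 and 3.04 and percentiles of 81.0, 84.0, 84.9 and 86.9. Plg had the highest local background of the members in 3 of the 4 lists, 5.49 to 7.23 times the common background, with pileups of 15.8, 16.1, 18.9 and 16.8 times. Females had slightly more bases covered than males in both strains, 6961 against 6523 bp in B6 and 6908 against 6507 bp in CAST, with a log2 ratio of 0.09 in each. The intronic region chr17:12608070-12608350 was called in both female lists only, at percentiles of 30.3 and 10.5.

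Start bases were covered in all 4 lists for 3 of 10 members (F5, F7 and F10), against 61.7% of the 12710 genes with a start peak in every list. F2 and F11 were covered in 3 lists each, and Fga, Fgb, Fgg, Plg and Kng1 in none. An uncovered base is one that the peak caller did not call, and the coverage there was not measured.

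Between the sexes, no member differed by at least 1.5 times in covered length over the gene with its flanks in either strain. This count depended on the definition. In B6 it was 3 over gene bodies alone (Fga at -0.64, Fgb at 1.11 and Kng1 at -0.73 on the log2 scale), against 12.9% of 10393 genes over their bodies. At a −log10 q-value of at least 5 or with lists of equal length it was 1 (Fga, at -0.69 and -0.60), against 9.20% and 8.56% of genes. In CAST it was 1 at the stricter q-value (Fgg, at -0.85), against 11.3%. Across all genes with 1000 covered bp or more in a list of the pair, 8.36% of 15104 genes reached that size over gene and flanks in B6 and 9.87% of 15253 in CAST. Of the 10 members, 7 had a lower value in females in B6 and 8 in CAST, with medians of -0.14 on the log2 scale in both. Over all genes, 59.4% had a ratio below 0 in B6 and 70.1% in CAST. F7 (0.03 and 0.02) and Plg were slightly higher in females of both strains. These signs were not kept under every alternative: over gene bodies F7 stood at -0.41 in B6 and 0.55 in CAST, at the stricter q-value F7 stood at -0.04 in B6 and Plg at -0.13 in CAST, and with peaks weighted by fold enrichment F7 stood at -0.02 and -0.10. F2 had log2 ratios of -0.36 and -0.15, F5 of -0.08 and -0.35, F11 of -0.07 and -0.33, and Kng1 of -0.20 and -0.24. Between the strains, 0 of 10 members reached 1.5 times in males or in females, against 14.4% of 15392 and 19.5% of 15382 genes. Over gene bodies there was 1 in females, Fgb at -0.83, against 24.5% of genes. The CAST/B6 log2 ratios of the members ran from -0.24 (Fgb) to 0.22 (F10) in males and from -0.36 (F11) to 0.33 (Fgg) in females, and the latter turned to -0.40 at the stricter q-value. Comparisons of sex and of strain share lists, so their ratios are not independent.

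**Figure D4:**
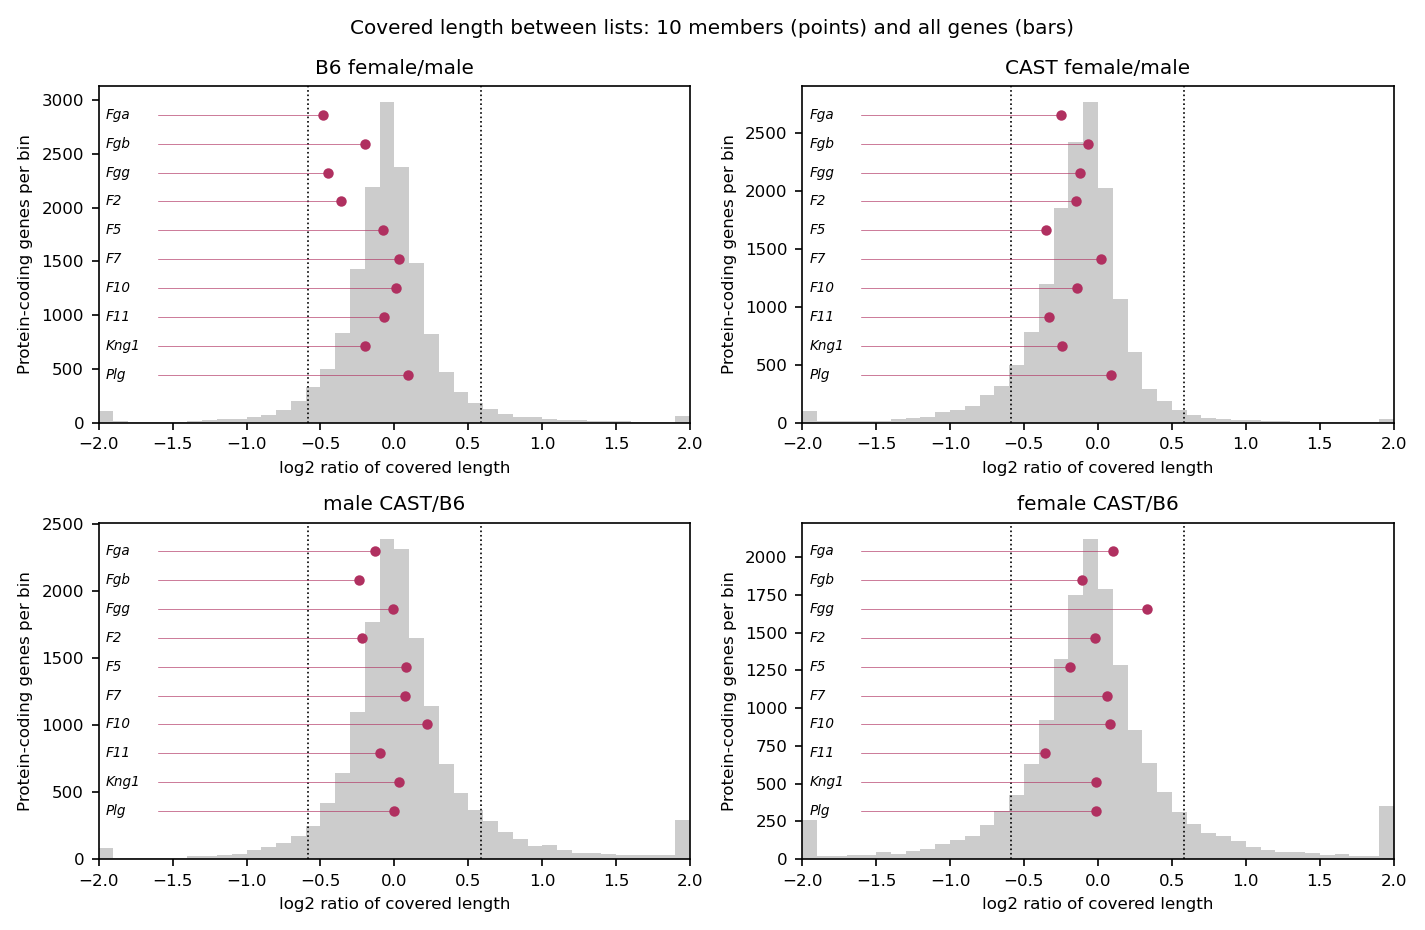
Histograms of the log2 ratio of covered length over all protein-coding genes for the 4 comparisons (grey bars, values beyond 2 in the end bins), with the 10 members as points at heights that carry no value. Dotted lines mark a ratio of 1.5, which no member passes.

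Of the regions called in B6 in the windows, 26 of 81 (32.1%, 95% Wilson interval 22.9 to 42.9) were called in 1 sex only, against 34.9% of all B6 regions. In CAST the count was 21 of 79 (26.6%, 18.1 to 37.2), against 35.5%. These intervals cover counting error only. The members hold more promoter regions, 38 of 96 against 28732 of 119348. Among promoter regions alone, 8 of 34 (23.5%) were called in 1 sex only in B6, against 19.1% of all promoter regions, and 3 of 34 (8.82%) in CAST, against 19.4%. Among distal regions it was 18 of 47 against 40.7% in B6 and 18 of 45 against 41.3% in CAST. In B6, 14 were called in males only and 12 in females only, and in CAST 13 and 8. The CAST counts depended on the settings: females alone had 1 region at the stricter q-value and 3 after merging of peaks within 500 bp or in the top 50% of each list, and males alone had 20 when a list had to cover 50% of a region and 5 in the top 50%. In B6 the top 50% held 8 and 3. Over all regions, 17.4% of those called in B6 were found in males alone and 17.5% in females alone, against 21.5% and 14.1% in CAST. Only 4 regions were sex-specific in the same direction in both strains. The region upstream of Fga was male-only, 1 of 96 against 2.35% of all regions, and those in Fga, F5 and Plg were female-only, 3 of 96 against 1.23%. These shares rest on 1 and 3 regions. B6-only regions were 2 of 55 (3.64%, 1.00 to 12.3), against 8.40% of all regions called in both B6 lists, and CAST-only regions were 2 of 58 (3.45%, 0.951 to 11.7), against 11.8%. At promoter regions these shares were close to those of the series, 3.85% against 3.60% for B6-only and 6.45% against 6.85% for CAST-only regions. At distal regions they were 3.45% against 10.8% for B6, and 0 of 27 (Wilson interval up to 12.5%) against 14.2% for CAST. With other settings, B6-only regions were 4 at the stricter q-value and 1 over gene bodies. CAST-only regions were 3 at the stricter q-value, 1 over gene bodies and 1 after merging of peaks within 500 bp.

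Regions found in all lists were wider and ranked higher by their medians than regions of 1 list, with overlap. Of the 96 regions, 50 (52.1%) were called in all 4 lists, with a median width of 1086 bp (370 to 3435 bp) and a median score percentile of 65.0 (26.5 to 90.6). The 28 regions called in 1 list had a median width of 276 bp (220 to 705 bp) and a median percentile of 19.9, and none was above 52.5. Merging overlapping peaks widens a shared region by construction. Over the whole series, 40.4% of regions were called in all lists and 32.4% in 1 list. Promoter regions of the members were shared by all lists in 25 of 38 cases (65.8%) and distal regions in 25 of 58 (43.1%), against 63.0% and 33.3% over the whole series.

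**Figure D5:**
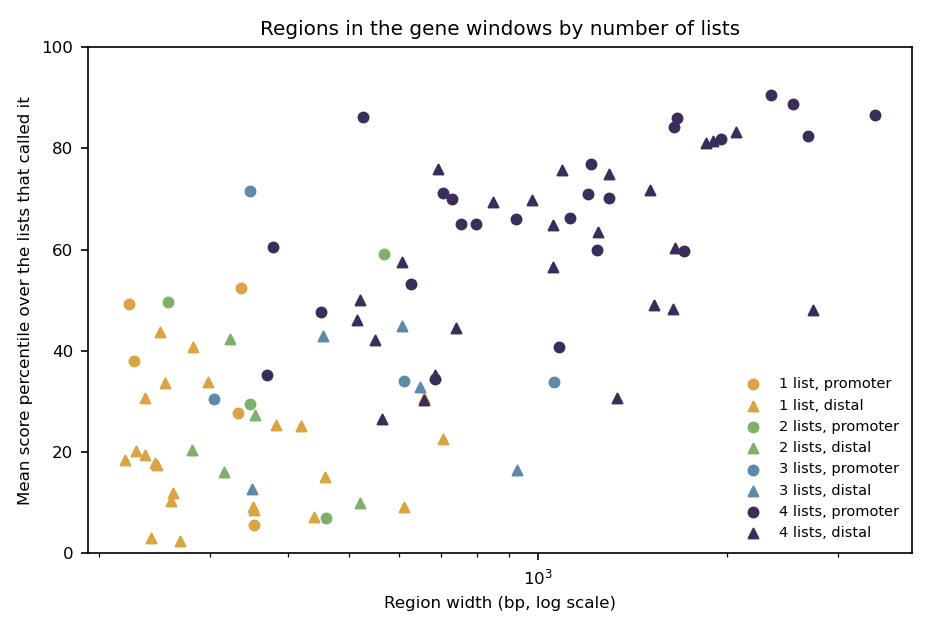
Width (bp, log scale) against mean score percentile for the 96 regions, coloured by the number of lists that called them, with circles for promoter and triangles for distal regions. Regions of 1 list stay at or below a percentile of 52.5, and the regions of 4 lists reach 90.6.

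Of the other genes of the system, 30 were compared in the same way. Of the 5 further procoagulant genes of liver (F9, F12, F13b, Klkb1 and Kng2), all had a start peak in every list, as had 14 of 14 inhibitor and anticoagulant genes and 4 of 4 genes of vitamin K use and secretion. Of the 4 genes mainly of other cells (F3, F8, F13a1 and Vwf), 2 had one, and of the 3 activator and receptor genes of fibrinolysis (Plat, Plau and Plaur), 2. Over all protein-coding genes, 56.9% had a start peak in every list. Between the sexes, 0 of 28 genes with enough coverage differed by at least 1.5 times in B6, and 4 were lower and 0 higher in CAST females. Between the strains, 2 were higher and 3 lower in CAST males, and 1 was higher and 5 lower in CAST females, of 28 genes in each. The shares over all genes, in either direction, were the 8.36% and 9.87% given above for the sexes and 14.4% and 19.5% for the strains. Thbd (thrombomodulin), Pros1 (protein S) and Lman1, a cargo receptor for secretion of factors V and VIII, had fewer bases covered in CAST in both sexes. Their log2 ratios in males and females were -1.02 and -0.79 for Thbd, -0.63 and -1.09 for Pros1 and -0.59 and -0.84 for Lman1. Procr, the receptor of protein C, had more, at 0.68 and 1.14. The start peaks did not all go the same way: the score percentile of Lman1 was 90.6 and 92.2 in B6 males and females and 94.7 and 94.1 in those of CAST, and the start pileup of Thbd was 3.11 times the common background in B6 males and 3.98 times in CAST males. Of the Thbd window, 3246 and 2836 bp were covered in B6 males and females and 1605 and 1636 bp in CAST males and females.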

How the data were processed

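H3K27ac ChIP-seq of 20 livers and 4 inputs was used as 4 peak lists deposited by the authors. According to the study's methods, the authors pooled the reads of a group and aligned unique reads with Bowtie2 (B6 to mm9, CAST to a CAST genome converted to mm9). They called peaks with MACS2 over input DNA and removed blacklisted regions. Which input served for which list is not stated. Depth per library is not in the lists and was not used here. Per peak, the authors deposited a score, a fold enrichment (a ratio to local background), a −log10 p-value, a −log10 q-value and a summit offset.

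Computed here (Python 3.11.15, numpy 2.4.6, pandas 2.3.3, scipy 1.17.1): bases covered per window, on NCBIM37 (mm9) with GENCODE vM1, union regions (overlap of at least 1 bp), score percentiles, local background and pileup solved from fold and p-value under MACS2's formulas (common background from −log10 p-values of 20 to 40), and repeated 50-base words, a length chosen here. The scripts were tested on simulated data. No peak numbers were missing from the member windows. No test between conditions was possible with 1 pooled list per group, so values are descriptions.

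All 10 members were named. Of the other pathway genes, those changed at least 1.5 times in the same direction in both strains or sexes were named (up to 3 per direction). Of the regions, each member's highest-ranked one, those of 1 sex in both strains and those of 1 strain were named, and further regions were picked after their values were seen. The members and lists were chosen with earlier results of these data known. Plg and Kng1 promoters were not analysed here. One other gene of the pathway list is not reported here.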

Additional observations from a re-analysis of the deposited data

Results flagged for a closer look

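With 1 list per group, effects of opposite sign in the 2 strains or the 2 sexes were noted without a test of the difference. The female/male log2 ratio of covered length of F10 was 0.01 in B6 and -0.14 in CAST, a difference of 0.14. The CAST/B6 log2 ratio was -0.13 in males and 0.10 in females for Fga (difference 0.23), -0.01 and 0.33 for Fgg (0.33), 0.08 and -0.19 for F5 (0.27), and 0.03 and -0.01 for Kng1 (0.04). All 5 differences are smaller than a change of 1.5 times, and none was tested. Each opposite sign was lost under at least 1 alternative. At a −log10 q-value of at least 5, the values were -0.05 and -0.18 for F10, -0.01 and -0.40 for Fgg and 0.11 and 0.07 for Kng1. Over gene bodies Fga stood at 0.08 and 0.29, and with peaks weighted by fold enrichment F5 stood at -0.05 and -0.19.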

How the results depend on the processing

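No paired analysis was possible because each list pools its 5 livers, and for the same reason no liver could be left out. Over the gene bodies without flanks, covered length was 31606 bp in B6 males, 29279 bp in B6 females, 31742 bp in CAST males and 28513 bp in CAST females, in 38, 45, 43 and 44 peaks. In the top 50% of each list, 45, 44, 45 and 44 peaks remained. Members at least 1.5 times apart in covered length between the B6 sexes numbered 3 over gene bodies (Fga, Fgb and Kng1, with log2 ratios of -0.64, 1.11 and -0.73), 1 at a −log10 q-value of at least 5 (Fga, -0.69) and 1 with lists of equal length (Fga, -0.60). Between the CAST sexes there was 1 at the stricter q-value (Fgg, -0.85), and between the strains in females 1 over gene bodies (Fgb, -0.83). Centring on the median of all genes, or weighting by fold enrichment, gave 0 in all 4 comparisons. Ratios of single members changed sign in 13 of 38 values over gene bodies, 9 of 40 when weighted by fold enrichment, 8 of 40 at the stricter q-value, 4 of 40 when centred and 1 of 40 with lists of equal length. Not all were near 0: the female/male ratio of Fgg in B6 went from -0.45 to 0.15 over gene bodies, and its CAST/B6 ratio in females from 0.33 to -0.40 at the stricter q-value.

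B6 male-only regions numbered 9 at the stricter q-value, 7 over gene bodies, 9 after merging of peaks within 500 bp and 8 in the top 50%. B6 female-only regions were 7 when merged and 3 in the top 50%. CAST female-only regions were 1 at the stricter q-value, 3 when merged and 3 in the top 50%. CAST male-only regions were 20 when a list had to cover 50% of a region and 5 in the top 50%. B6-only regions were 4 at the stricter q-value and 1 over gene bodies, and CAST-only regions were 1 over gene bodies and 1 when merged. The cause of these shifts was not tested. Promoter length stayed within 1.5 times of its value under both other definitions of a promoter. The ranking by solved pileup was added after seeing the data.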
